A study of Mus musculus with 12 samples.

Results

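Solute carriers are the membrane proteins that move sugars, amino acids, ions, metals, nucleosides and other small molecules across the plasma membrane and the membranes of organelles. The genes described here are the rows of the deposited table whose mouse symbol starts with Slc and a number, without the mitochondrial Slc25 family and without the lactate carriers Slc16a1 and Slc16a3. There were 164 such genes among the 12081 listed, from 45 families, and they were chosen by symbol and not by any measured value. Of the 164, 160 encode carriers. The other 4 share the symbol only: Slc9a3r1 and Slc9a3r2 encode scaffold proteins, Slc4a1ap encodes an adaptor protein and Slc7a6os is named for its place beside Slc7a6. The mouse annotation GENCODE M21 holds 322 protein-coding symbols that fit the same rule, and 161 of these had a row. Of the 164 genes, 137 stood at 1 CPM or more in every library, 27 fell below 1 CPM in at least 1 library and 12 were listed at 0 in at least 1.

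Hepatic stellate cells are liver pericytes that store vitamin A and turn into myofibroblasts on activation. Primary mouse cells of this kind were sequenced in 4 groups of 3 libraries, and all carried floxed alleles of Hk2 (hexokinase 2, an enzyme of glycolysis). LAC cells were Hk2-deleted cells cultured for 6 days in medium with 1000 mg/L glucose and given 10 mM lactate for 24 h. KO cells were transduced with an adenovirus carrying Cre fused to eGFP and kept for 6 days in medium with 1000 mg/L glucose and serum. ACT cells received an eGFP adenovirus and the same culture. QS cells were freshly isolated, with neither virus nor culture. Virus, culture and time therefore cannot be told apart between ACT and QS, and neither can Cre itself and the loss of Hk2 between KO and ACT. The labels do not give the animal or culture behind each library. A p-value here therefore covers library-to-library spread, possibly technical in origin.

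Families of solute carriers are numbered by shared ancestry, and members of a family mostly carry related substrates. Many work in pairs: the light chains of Slc7 need the heavy chain encoded by Slc3a2 to reach the plasma membrane, and carriers that exchange amino acids depend on others that bring them in with sodium. In liver, hepatocytes hold many carriers for bile acids, drugs and glucose, while macrophages are known for carriers that handle iron and lysosomal products.

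Values are the authors' normalized CPM (read counts scaled to the size of each library), which are not per length, so levels are compared between groups and not between genes. Fold changes are differences on the log2(CPM + 1) scale with their standard errors, tested with limma across all 12081 genes. Called means an adjusted p under 0.05. The estimated depth ran from 8.67 to 11.05 megareads in LAC libraries, 5.85 to 11.64 in KO, 11.41 to 14.00 in ACT and 4.35 to 10.14 in QS. A count of 3 reads amounted to 0.212 to 0.72 CPM. Hk2 stood at 18.7, 19.6 and 19.7 CPM in the LAC libraries, 10.7, 13.7 and 11.9 in KO, 181, 182 and 181 in ACT and 73.3, 66.7 and 73.5 in QS. It was lower in both Hk2-deleted groups than in ACT, as the labels say.

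Marker genes of other liver cells and of the mitochondria moved between the groups as well. The summed level of 20 macrophage and Kupffer cell markers was 4344 to 4420 CPM in LAC, 556 to 577 in KO, 17366 to 17692 in ACT and 7683 to 7770 in QS. Of the 20, 15 rose and 2 fell in LAC against KO, 1 rose and 18 fell in KO against ACT, and 11 rose and 7 fell in ACT against QS. Lyz2 alone made up 53.3% of the sum in ACT and 6.63% in QS. Without it the other 19 summed to 2128 to 2158 CPM in LAC, 486 to 505 in KO, 8184 to 8230 in ACT and 7183 to 7236 in QS. Of these, Mrc1 averaged 387 CPM in KO and 170 in ACT and was the 1 that rose in KO against ACT. The similar ACT and QS sums hide a split. Clec4f averaged 3.72 CPM in ACT and 360 in QS and Marco 194 and 931, while Itgam averaged 1037 and 155. Timd4 was listed at 0 in 4 libraries, the other 19 in none. The sum of 19 endothelial markers was 4590 to 4801 CPM in LAC, 8508 to 9551 in KO, 788 to 815 in ACT and 15438 to 16044 in QS. All 19 were lower in ACT than in QS and higher in KO than in ACT, 18 were lower in LAC than in KO, and none was listed at 0.

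Hepatocyte markers, of which 21 of 22 had a row, summed to 260 to 270.3 CPM in LAC, 553 to 608 in KO, 149 to 161 in ACT and 2443 to 2488 in QS. Ass1 made up 99.2% of that sum in LAC and 74% in ACT. The other 20 summed to 1.45 to 2.96 CPM in LAC, 336 to 359.9 in KO, 37.1 to 41.7 in ACT and 2333 to 2379 in QS, so they were lowest in LAC. Of the 21, 20 fell and 1 rose in LAC against KO, 12 fell and 1 rose in LAC against ACT, 21 rose in KO against ACT and 20 fell in ACT against QS, and 8 were listed at 0 in every LAC library. The 15 stellate markers, all present, summed to 6601 to 6995 CPM in LAC, 3621 to 3908 in KO, 13467 to 13532 in ACT and 3456 to 3488 in QS. Acta2, Col1a1, Col1a2 and Col3a1 made up 86.83% of that sum in LAC, 73.95% in KO and 95.44% in ACT, but 11.78% in QS. The other 11 ran in another order, at 877 to 916 CPM in LAC, 946 to 1027 in KO, 613 to 619 in ACT and 3051 to 3089 in QS. Of the 15, 7 rose and 4 fell in LAC against KO, 9 rose and 5 fell in KO against ACT, and 6 rose and 9 fell in ACT against QS. The genes left out of these sums were chosen after their values were seen. Biliary and mesothelial markers, 10 of 12 with a row, summed to 101 to 102 CPM in LAC, 69.5 to 71.4 in KO, 231 to 250.4 in ACT and 61.8 to 67.8 in QS. The 13 mitochondrially encoded genes summed to 43903 to 46586 CPM in LAC, 51476 to 56556 in KO, 36461 to 41700.4 in ACT and 128042 to 129603 in QS. All 13 fell in ACT against QS, 11 rose in KO against ACT and 8 fell in LAC against KO. The part of these shifts in the carrier results was not tested, and in bulk RNA fewer cells of a type and less RNA per cell cannot be told apart.

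Solute carriers moved in every comparison. The share called was close to that of all genes in ACT against QS, KO against ACT and LAC against KO, and above it in LAC against ACT. In ACT against QS, 73 rose, 48 fell and 43 were not called. That is 73.8% called beside 73.5% of all genes (38% higher and 35.5% lower). At least a 2-fold change was reached by 31 of the rises and 27 of the falls, beside 16.3% of all genes for rises and 14.9% for falls. In KO against ACT, 52 rose, 58 fell and 54 were not called. So 67.1% were called beside 62.4% of all genes (36% higher and 26.3% lower). Rises of at least 2-fold numbered 15 and falls 25, beside 9.17% and 9.78% of all genes. In LAC against KO, 33 rose, 30 fell and 101 were not called. That is 38.4% beside 41% of all genes (20% higher and 21% lower). There the large changes were mostly rises: 17 genes rose and 2 fell at least 2-fold, beside 5.12% and 2.19% of all genes. In LAC against ACT, 42 rose, 56 fell and 66 were not called. That is 59.8% beside 49.5% of all genes (27.8% higher and 21.7% lower). The median log2 fold change of the 164 genes was 0.17 in ACT against QS (0.03 over all genes), -0.08 in KO against ACT (0.07), 0.00 in LAC against KO (-0.02) and -0.04 in LAC against ACT (0.03). For 92 carrier genes (56.1%, beside 55.2% of all genes) 1 group stood above the other 3 with no overlap of libraries. That group was LAC for 7 (5.98% of all genes), KO for 13 (9.73%), ACT for 35 (14.1%) and QS for 37 (25.3%).

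**Figure D1:**
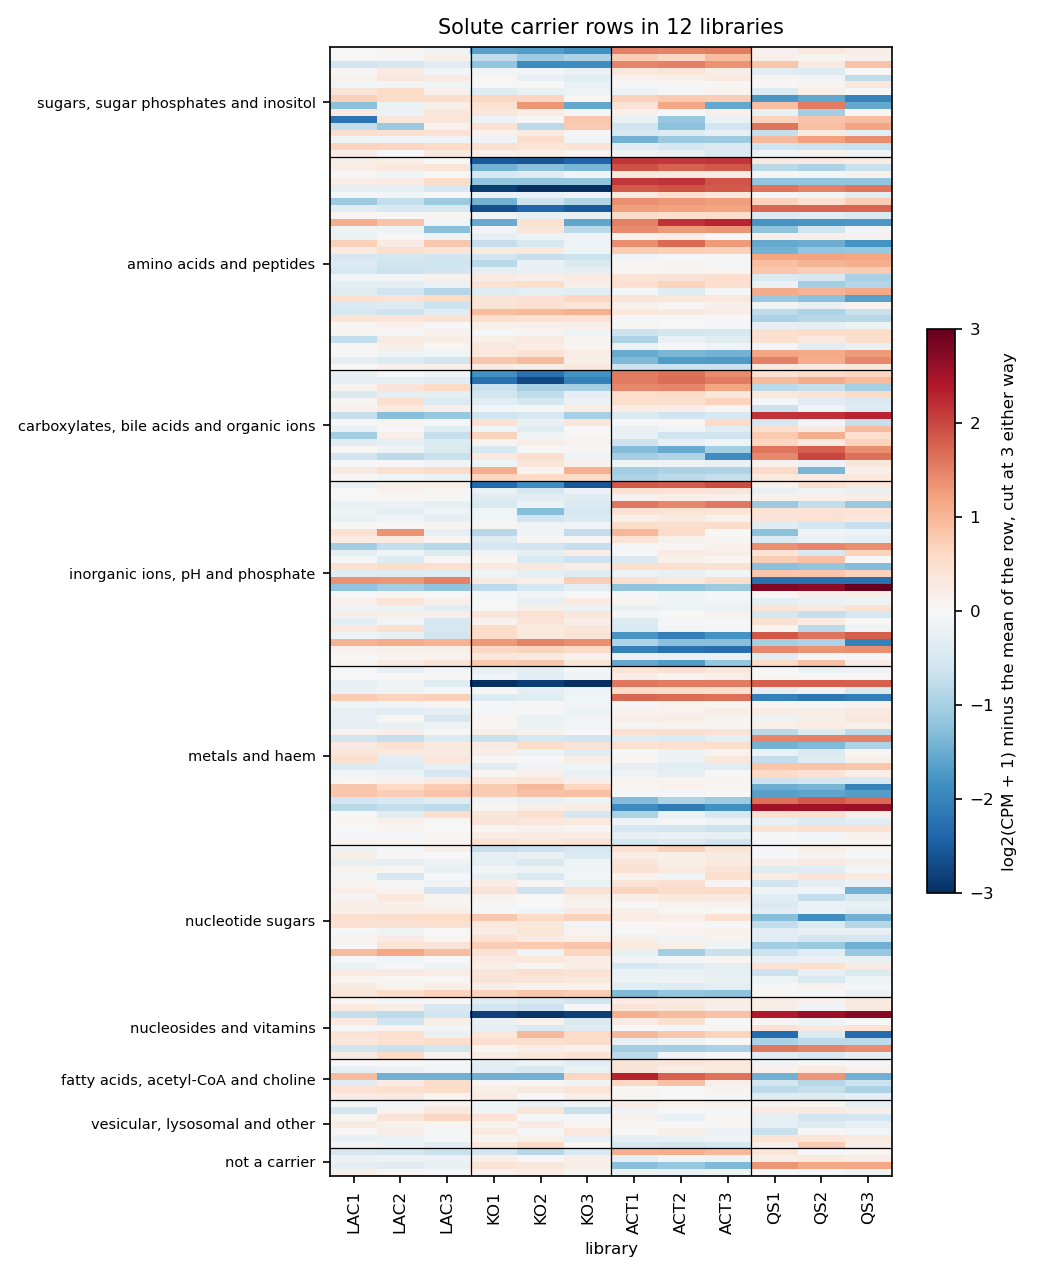
Each row is 1 of the 164 solute carrier genes, grouped by class of substrate, and each column 1 of the 12 libraries, ordered LAC, KO, ACT and QS. Colour gives log2(CPM + 1) minus the mean of the row, red for above and blue for below. The darkest blue rows in KO and the dark red rows in QS mark the genes with the largest spread.

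**Figure D2:**
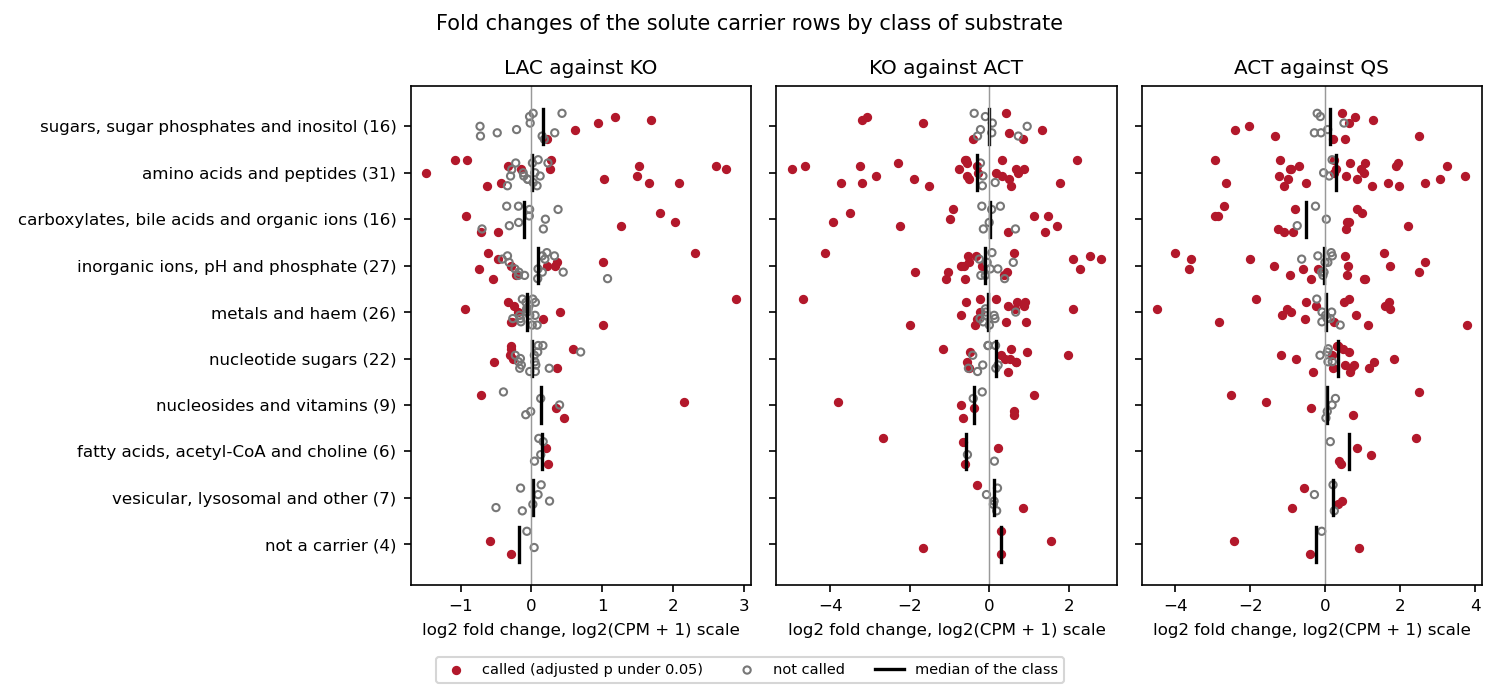
Each point is 1 of the 164 genes, placed by its log2 fold change in LAC against KO (left), KO against ACT (middle) and ACT against QS (right) and by the class of its family, with the number of genes in brackets. Filled points were called at an adjusted p under 0.05, open points were not, and black bars are class medians. In LAC against KO the 17 rises of at least 2-fold lie right of the value 1.

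Amino acid and peptide carriers (31 genes of the Slc1, Slc3, Slc6, Slc7, Slc15, Slc36, Slc38 and Slc43 families) were the largest class. In LAC against ACT 6 rose and 22 fell, which is 90.3% called and 71% lower, beside 49.5% and 21.7% of all genes. In ACT against QS 18 rose and 10 fell, in KO against ACT 10 rose and 17 fell, and in LAC against KO 9 rose and 7 fell. The shares called in that order were 90.3%, 87.1% and 51.6%, beside 73.5%, 62.4% and 41% of all genes. Their median log2 fold change was 0.28 in ACT against QS, -0.32 in KO against ACT, 0.01 in LAC against KO and -0.49 in LAC against ACT. Summed over the class, the level was 2678 to 2706 CPM in LAC, 2704 to 2764 in KO, 3205 to 3218 in ACT and 3471 to 3563 in QS. Within that sum the Slc43 family averaged 311 CPM in LAC, 378 in KO, 230 in ACT and 860 in QS. The place of QS above ACT, and of KO above LAC, rests on this family. Its Slc43a3 is known to carry purine nucleobases.

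Slc7a11 and Slc7a5, light chains of the Slc7 family, were highest in KO and lower in LAC, while Slc7a8 and Slc7a2 of the same family were lowest in KO. Slc7a11 encodes the cystine and glutamate exchanger that feeds glutathione synthesis, and its gene lies at chr3:49892526-50443614 (mm10, minus strand). Its level was 29.1, 26.2 and 32.1 CPM in LAC, 80.1, 82.4 and 86.9 in KO, 51.5, 49.9 and 47.6 in ACT and 24.0, 21.3 and 25.5 in QS. No KO library overlapped any other group, and the LAC libraries lay just above those of QS. Slc7a11 fell in LAC against KO (log2 fold change -1.48 ± 0.084 SE, adjusted p = 5.76e-09), which was the largest fall of any carrier gene in that comparison. It rose in KO against ACT (0.73 ± 0.084, adjusted p = 3.35e-06) and in ACT against QS (1.04 ± 0.084, adjusted p = 4.55e-08), and fell in LAC against ACT (-0.75 ± 0.084, adjusted p = 3.93e-06).

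Slc7a5 encodes LAT1, the exchanger of leucine and other large neutral amino acids. It had 54.7, 56.7 and 47.4 CPM in LAC, 99.1, 105 and 96.7 in KO, 82.3, 77.1 and 82.1 in ACT and 69.4, 63.9 and 79.8 in QS. All 3 LAC libraries lay below, and all 3 KO libraries above, every other library. It fell in LAC against KO by 0.91 on the log2 scale (SE 0.081, adjusted p = 7.4e-07) and rose in KO against ACT (0.31 ± 0.081, adjusted p = 0.00416). ACT against QS, at 0.18 ± 0.081, was not called (adjusted p = 0.0558). It was called with each library scaled to an equal total (0.26, adjusted p = 0.00922), with quantile normalization (0.32, adjusted p = 0.00324) and without QS replicate 3 (0.27, adjusted p = 0.00662). Slc3a2, the heavy chain that both light chains bind, took another course. Its values were 144, 134 and 140.3 CPM in LAC, 174, 179 and 174 in KO, 213, 223 and 220.2 in ACT and 371, 348 and 355 in QS. The 4 groups did not overlap and stood in the order LAC, KO, ACT, QS from lowest to highest, and each step was called. Slc3a2 fell in LAC against KO (-0.33 ± 0.038, adjusted p = 1.12e-05) and in KO against ACT (-0.32 ± 0.038, adjusted p = 6.72e-06). The fall in ACT against QS was -0.71 ± 0.038 (adjusted p = 6.01e-10).

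**Figure D3:**
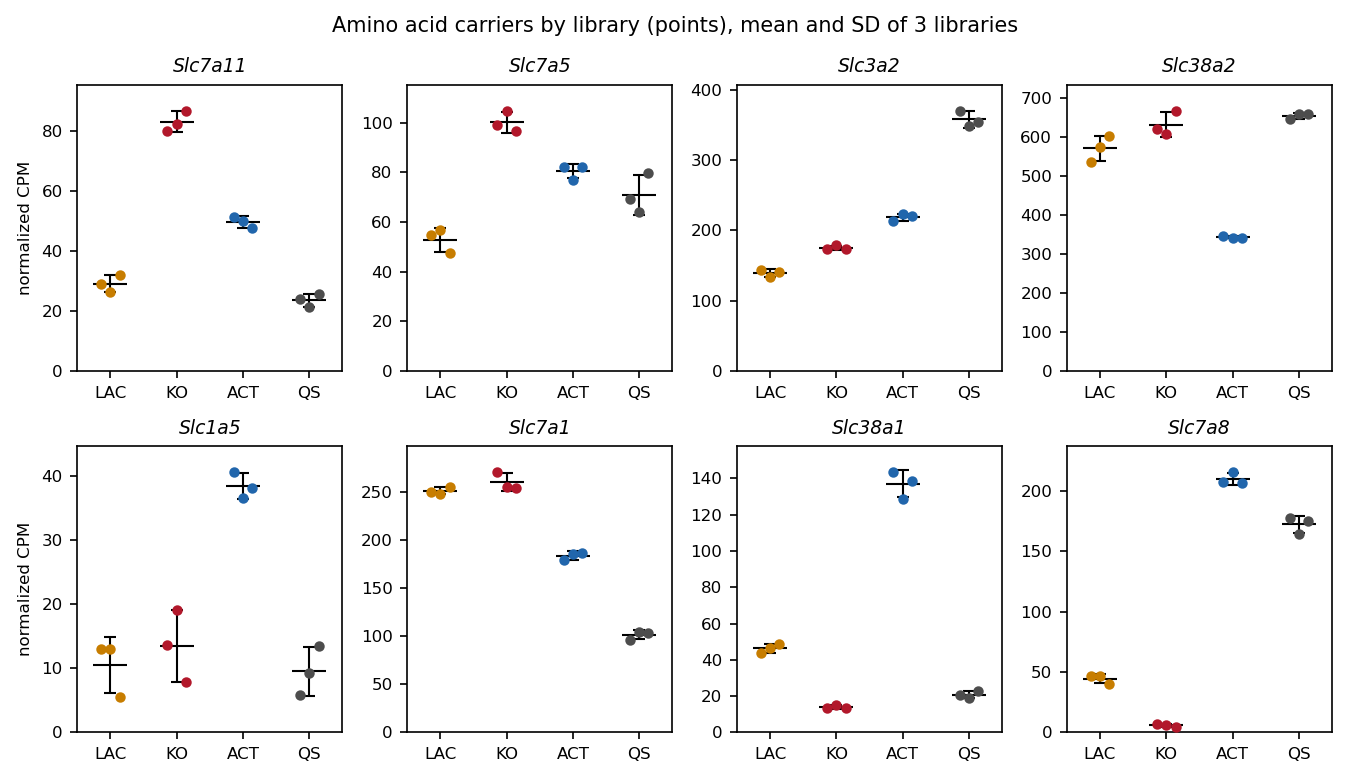
Each panel gives the CPM of 1 amino acid carrier gene in the LAC, KO, ACT and QS libraries, with a point for each library and bars for the mean and SD of 3. Slc7a11 and Slc7a5 are highest in KO, Slc3a2 is lowest in LAC and higher in steps through KO, ACT and QS, and Slc38a1 and Slc7a8 are lowest in KO.

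Other carriers of cationic and neutral amino acids followed other courses. Slc7a1, the main importer of arginine and lysine in most cells, averaged 251 CPM in LAC, 259.7 in KO, 184 in ACT and 101 in QS. It rose in KO against ACT (0.50 ± 0.042) and in ACT against QS (0.85 ± 0.042), and LAC and KO libraries overlapped. Slc38a2, a sodium-driven importer of small neutral amino acids that cells induce on amino acid shortage, had 536, 575 and 602 CPM in LAC, 621, 607 and 668 in KO, 347, 341 and 342 in ACT and 646, 658 and 660.3 in QS. Its ACT libraries stood well below all others, so it fell in ACT against QS (-0.93 ± 0.043) and rose in KO against ACT (0.88 ± 0.043). Its fall in LAC against KO of 0.15 on the log2 scale (adjusted p = 0.0153) was no longer called without LAC replicate 1 (adjusted p = 0.0784) or KO replicate 3 (adjusted p = 0.0634). Slc38a1, which imports glutamine with sodium, went the other way, with 43.8, 46.8 and 48.6 CPM in LAC, 13.3, 15.1 and 13.6 in KO, 143, 129 and 139 in ACT and 20.5, 18.9 and 22.9 in QS. No groups overlapped. It rose in LAC against KO (1.66 ± 0.082), fell in KO against ACT (-3.20 ± 0.082) and rose in ACT against QS (2.67 ± 0.082, adjusted p = 1.05e-12). Slc1a5, the glutamine exchanger ASCT2, stood at 13.1, 13.0 and 5.54 CPM in LAC, 13.7, 19.0 and 7.86 in KO, 40.6, 36.6 and 38.2 in ACT and 5.77, 9.28 and 13.5 in QS. Only its ACT libraries lay apart. The other 3 groups overlapped, with a wide spread. Slc1a5 fell in KO against ACT (-1.52 ± 0.34, adjusted p = 0.00145).

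The largest falls in KO against ACT in this class were in Slc7a8, Slc7a2 and Slc15a3. Slc7a8, the light chain LAT2, had 46.6, 46.8 and 40.5 CPM in LAC, 7.10, 5.82 and 4.56 in KO, 207, 216 and 207 in ACT and 178, 165 and 175 in QS. It fell in KO against ACT (-4.97 ± 0.11, adjusted p = 3.68e-14) and rose in LAC against KO (2.76 ± 0.11, adjusted p = 1.05e-10). Slc7a2, the arginine importer CAT2 known from activated macrophages and hepatocytes, had 49.0, 48.0 and 42.4 CPM in LAC, 6.65, 6.33 and 7.24 in KO, 193, 189 and 192 in ACT and 51.4, 51.0 and 49.8 in QS. The gene showed a fall of 4.64 in KO against ACT and a rise of 2.62 in LAC against KO on the log2 scale. For Slc15a3, a lysosomal carrier of peptides and histidine in immune cells, the averages were 49.3 CPM in LAC, 10.9 in KO, 156 in ACT and 224 in QS. All 3 genes were lowest in KO without overlap and moved beside the macrophage markers. Against the mean of that list, the Pearson r over the 12 libraries was 0.990 for Slc7a8, 0.865 for Slc7a2 and 0.997 for Slc15a3.

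Several low genes of the class appeared mainly in ACT. Slc36a2, a proton-coupled importer of glycine, alanine and proline, was listed at 1.64, 1.71 and 2.34 CPM in LAC, at 0 in every KO library, at 8.98, 9.32 and 7.41 in ACT and at 0 in every QS library. It was called in all 4 comparisons, and no fold is given against groups at 0. Slc6a17, a vesicular carrier of neutral amino acids in neurons, had 6.27, 5.19 and 2.25 CPM in LAC, 0.196, 3.72 and 0.155 in KO, 8.76, 14.4 and 15.5 in ACT and 0, 0.0197 and 0.0366 in QS. LAC and KO overlapped through 1 KO library. Slc1a6, a glutamate carrier best known from the cerebellum, had 4.71, 3.17 and 5.06 CPM in LAC, 1.18, 1.48 and 2.14 in KO, 8.13, 10.3 and 7.51 in ACT and 0.207, 0.24 and 0 in QS. The taurine carrier Slc6a6, among the highest CPM of all 164 genes, averaged 453 CPM in LAC, 378 in KO, 637 in ACT and 330.1 in QS. It changed in each comparison, by 0.26 ± 0.042 in LAC against KO, -0.75 ± 0.042 in KO against ACT and 0.95 ± 0.042 in ACT against QS. All 4 Slc6 genes rose in ACT against QS, beside 38% of all genes, and all 4 fell in LAC against ACT, beside 21.7%. The Slc6 genes outside the naming rule, named after their values were seen, are the creatine carrier Slc6a8 (1.95 in ACT against QS) and the glycine carrier Slc6a9 (1.25).

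Slc43a3 and Slc15a2 were lowest in ACT. Slc43a3, placed here by its family though it is known to carry purine nucleobases, averaged 207 CPM in LAC, 280.1 in KO, 81.5 in ACT and 513 in QS. The log2 fold changes were -0.43 ± 0.055 in LAC against KO, 1.77 ± 0.055 in KO against ACT and -2.64 ± 0.055 in ACT against QS. Slc15a2, a peptide carrier of the plasma membrane, averaged 3.50 CPM in LAC, 8.73 in KO, 1.05 in ACT and 14.7 in QS. Both ran with the endothelial markers over the 12 libraries, with r above 0.9. The sums of the mitochondrially encoded genes and of 11 stellate markers were also lowest in ACT and highest in QS.

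Of 10 carrier genes known as targets of the amino acid response, in which the factor ATF4 acts on genes for amino acid supply, 9 had a row. In ACT against QS 6 of the 9 rose and 2 fell, and in KO against ACT 5 rose and 2 fell. In LAC against KO 1 rose and 5 fell, and in LAC against ACT 3 rose and 6 fell. Their median log2 fold change in LAC against KO was -0.33, beside -0.02 for all genes. The 5 that fell there were Slc7a11, Slc7a5, Slc6a9, Slc3a2 and Slc38a2, and the acetyl-CoA carrier Slc33a1 rose by 0.21 (adjusted p = 0.0398). That call was lost without any 1 of the 3 LAC libraries and without KO replicate 1 or 2, with adjusted p between 0.0509 and 0.153. Among 18 other genes of that response, 12 rose and 2 fell in ACT against QS, and 2 rose and 10 fell in KO against ACT. LAC against KO gave 3 rises and 5 falls, and in LAC against ACT 2 rose and 12 fell. Beside both sets, 38% of all genes rose and 35.5% fell in ACT against QS, and 36% and 26.3% in KO against ACT. These shares were 20% and 21% in LAC against KO, and 27.8% and 21.7% in LAC against ACT. The factor itself, Atf4, averaged 188 CPM in LAC, 217 in KO, 207 in ACT and 355 in QS, and KO against ACT was not called (0.071, adjusted p = 0.0919). Sesn2, which encodes a leucine sensor, was highest in KO like Slc7a11, at 74.6 CPM in LAC, 103 in KO, 48.1 in ACT and 44.9 in QS. Asns, which makes asparagine, was at 92.1 CPM in LAC, 94.1 in KO, 129.9 in ACT and 36.9 in QS.

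The core letters of the amino acid response element, TGATGCAA or TTGCATCA on the other strand, were searched in the 300 bases around each RefSeq gene start (250 before, 50 after; GRCm38.p6, the build also named mm10). The RefSeq promoter table used here matched 123 of the 164 genes, and 4 of these held the motif: Slc1a4, Slc7a7, Slc7a11 and Slc50a1. It was present in 0.895% of all 32851 promoter sequences and in 2.99% of the 167 sequences of carrier genes. Slc7a7 entered that share with overlapping sequences that hold the same copy of the motif. The looser form TGATGNAA was held by 7 of the 123 genes and by 3.97% of all promoter sequences. The former counts genes and the latter sequences, so the values are not directly comparable. Slc7a11 and Slc1a4 were the 2 holders among the 7 amino acid response carriers with a promoter sequence. The promoters of Slc7a11 (chr3:50443564-50443863, minus strand), Slc1a4 (chr11:20332664-20332963, minus strand) and Slc7a7 (chr14:54417895-54418194, minus strand) are shown because they place the motif beside genes that moved differently. Capitals mark it, and all run 5′ to 3′.
Slc7a11: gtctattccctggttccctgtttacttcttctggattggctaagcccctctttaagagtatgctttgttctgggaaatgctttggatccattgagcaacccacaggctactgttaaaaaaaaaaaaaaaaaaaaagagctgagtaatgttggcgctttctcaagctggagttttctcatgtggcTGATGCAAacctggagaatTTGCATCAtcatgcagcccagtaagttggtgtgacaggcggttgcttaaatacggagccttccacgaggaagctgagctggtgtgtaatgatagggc
Slc1a4: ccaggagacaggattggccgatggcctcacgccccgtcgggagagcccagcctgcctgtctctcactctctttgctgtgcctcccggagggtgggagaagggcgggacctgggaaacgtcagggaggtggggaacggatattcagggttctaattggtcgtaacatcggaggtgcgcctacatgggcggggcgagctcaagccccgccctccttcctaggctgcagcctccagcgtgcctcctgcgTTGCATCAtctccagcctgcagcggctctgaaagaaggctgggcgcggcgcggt
Slc7a7: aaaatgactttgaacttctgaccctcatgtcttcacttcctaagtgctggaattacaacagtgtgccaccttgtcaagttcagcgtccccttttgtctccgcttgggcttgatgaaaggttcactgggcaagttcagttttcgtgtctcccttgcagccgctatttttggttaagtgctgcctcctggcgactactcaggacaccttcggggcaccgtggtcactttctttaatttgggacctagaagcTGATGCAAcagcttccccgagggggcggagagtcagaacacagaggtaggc
In Slc7a11 the motif occurs in both orientations, at 66 and 47 bases before the start, and in Slc1a4 and Slc7a7 as a single copy close to the start shown. The neutral amino acid exchanger Slc1a4 averaged 16.9 CPM in LAC, 19.8 in KO, 23.3 in ACT and 10.8 in QS. It rose in ACT against QS (1.06 ± 0.13) and was not called in LAC against KO (-0.22 ± 0.13, adjusted p = 0.209). Slc7a7, a light chain for cationic amino acids, averaged 15.3 CPM in LAC, 18.8 in KO, 21.2 in ACT and 51.2 in QS. The gene fell in ACT against QS (-1.24 ± 0.12) and was not called in LAC against KO (-0.29 ± 0.12, adjusted p = 0.0706). A match of letters is a description and not a measured binding site.

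Among the 16 carriers of sugars, sugar phosphates and inositol, 7 rose and 3 fell in ACT against QS, and 4 rose and 4 fell in KO against ACT. LAC against KO gave 5 rises and no fall, and in LAC against ACT 4 rose and 3 fell. The shares called in that order were 62.5%, 50%, 31.2% and 43.8%, beside 73.5%, 62.4%, 41% and 49.5% of all genes. Slc2a1 encodes GLUT1, the glucose carrier of most dividing cells. It had 41.3, 48.1 and 45.2 CPM in LAC, 39.0, 31.8 and 28.8 in KO, 41.1, 41.9 and 46.6 in ACT and 40.0, 35.1 and 21.6 in QS. The LAC and ACT libraries lay above all of KO and QS, with 1 QS library far below its partners. Only ACT against QS was called, at 0.45 ± 0.17 (adjusted p = 0.0312). The call was lost without QS replicate 3, ACT replicate 2 or ACT replicate 3, and the value was 0.20 in the first of these. It was also lost with only the 2 groups in the fit (adjusted p = 0.0597) and with moderation without trend (adjusted p = 0.0579). KO against ACT was -0.38 ± 0.17 (adjusted p = 0.0738) and LAC against KO 0.43 ± 0.17 (adjusted p = 0.0639). Both of these were called without KO replicate 1, at -0.50 and 0.55. Both were also called with only the 2 groups in the fit (adjusted p = 0.0117 and 0.012). The glucose carrier Slc2a3 was low, at averages of 4.45 CPM in LAC, 4.49 in KO, 4.19 in ACT and 2.84 in QS, and was called in none of the 4 comparisons. Without QS replicate 3 its rise in ACT against QS was called (0.73, adjusted p = 0.0226).

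Slc2a10, a glucose carrier of inner membranes whose loss in humans causes an arterial connective tissue disorder, had 8.44, 7.39 and 7.32 CPM in LAC, 7.84, 8.07 and 4.98 in KO, 8.28, 8.91 and 8.67 in ACT and 0.723, 0.96 and 0.429 in QS. It rose in ACT against QS (2.51 ± 0.19, adjusted p = 2.19e-08), and no call was made among the 3 cultured groups. Slc37a2, an exchanger of sugar phosphate in the endoplasmic reticulum that macrophages hold, had 44.3, 46.7 and 41.4 CPM in LAC, 13.7, 13.2 and 11.9 in KO, 128, 126 and 129.7 in ACT and 48.3, 55.7 and 51.4 in QS. It fell in KO against ACT (-3.21 ± 0.072) and rose in LAC against KO (1.69 ± 0.072), with r = 0.877 against the macrophage list. Slc2a6, a sugar carrier of leukocytes, was listed at 1.48, 1.62 and 1.89 CPM in LAC, 0.588, 0 and 0 in KO, 8.98, 9.36 and 8.16 in ACT and 5.42, 3.36 and 5.59 in QS. Slc45a4 was lowest in KO too, at 20.1 CPM in LAC, 10.0 in KO, 34.2 in ACT and 21.5 in QS, and Slc45a3 was lowest in ACT (1.32 ± 0.17 in KO against ACT). Slc5a3, the sodium-driven inositol carrier, was chosen after its values were seen because it rose at each step. It had 82.1, 81.0 and 78.3 CPM in LAC, 71.5, 65.7 and 69.5 in KO, 40.1, 35.6 and 37.4 in ACT and 33.3, 32.4 and 32.0 in QS. The log2 fold changes were 0.22 ± 0.059 in LAC against KO, 0.85 ± 0.059 in KO against ACT and 0.20 ± 0.059 in ACT against QS.

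**Figure D4:**
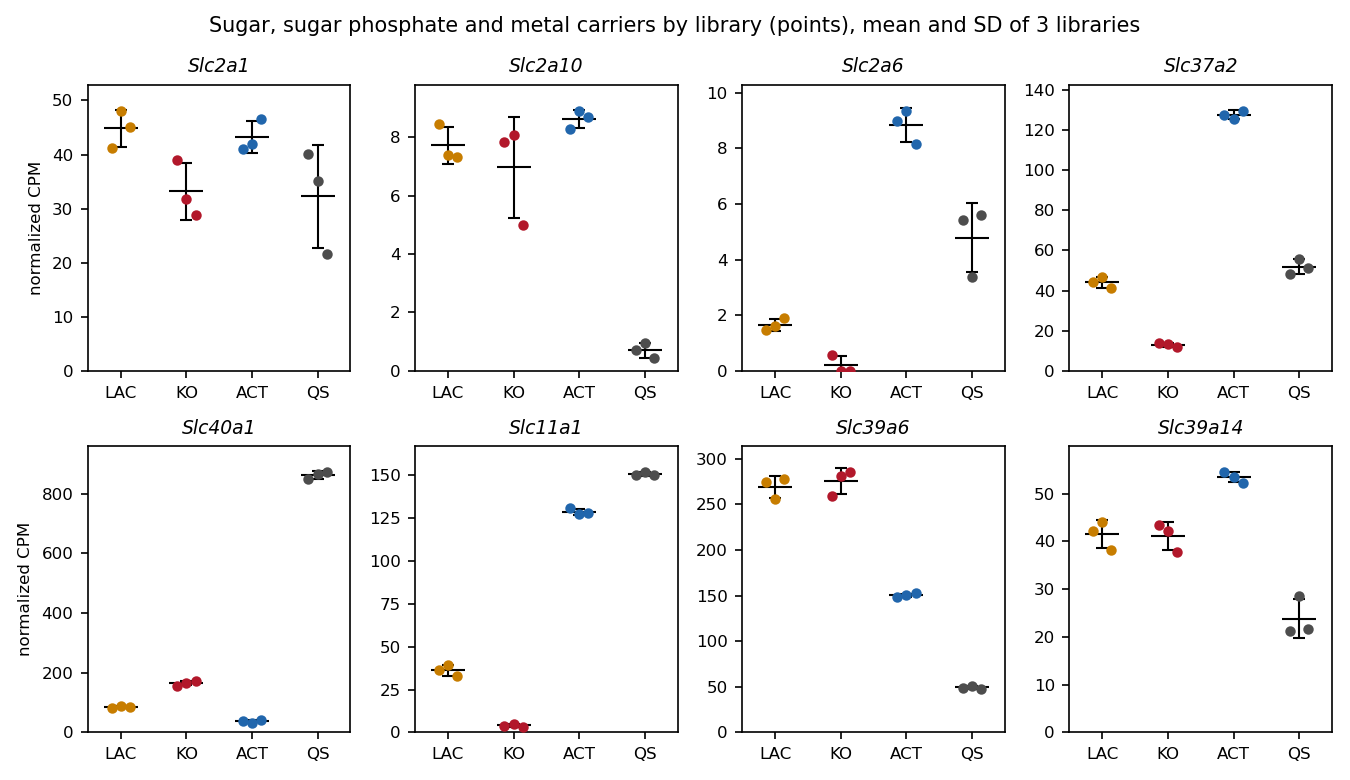
Each panel gives the CPM of 1 sugar, sugar phosphate or metal carrier gene in the LAC, KO, ACT and QS libraries, with a point for each library and bars for the mean and SD of 3. Slc2a10 is near 0.7 CPM in QS and between 4.98 and 8.91 in all cultured libraries, Slc40a1 is highest in QS, and Slc37a2 and Slc11a1 are lowest in KO.

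The 26 carriers of metals and haem split evenly in ACT against QS, with 9 higher and 9 lower, and in KO against ACT with 9 higher and 8 lower. In LAC against KO 4 rose and 6 fell, and in LAC against ACT 8 rose and 7 fell. The shares called in that order were 69.2%, 65.4%, 38.5% and 57.7%, beside 73.5%, 62.4%, 41% and 49.5% of all genes. Slc40a1 encodes ferroportin, the only known exporter of iron, and lies at chr1:45908068-45926523 (mm10, minus strand). Its level was 83.0, 89.0 and 84.8 CPM in LAC, 157, 167 and 171 in KO, 39.3, 33.2 and 40.9 in ACT and 849, 866 and 872 in QS. All groups were apart, QS far above the rest, and ACT lowest. Slc40a1 fell in ACT against QS (-4.48 ± 0.064, adjusted p = 3.02e-16), rose in KO against ACT (2.10 ± 0.064, adjusted p = 1.89e-12) and fell in LAC against KO (-0.94 ± 0.064, adjusted p = 4.87e-08). Slc11a1, the metal carrier of the macrophage phagosome, had 36.5, 39.5 and 33.1 CPM in LAC, 3.81, 5.14 and 3.32 in KO, 131, 127 and 128 in ACT and 150.2, 152 and 150.3 in QS. Its fall in KO against ACT (-4.69 ± 0.10, adjusted p = 5.59e-14) stood beside the largest rise of any carrier gene in LAC against KO (2.89 ± 0.10, adjusted p = 5.62e-11). Its r against the macrophage list was 0.993. Of 6 carriers known from macrophages (Slc11a1, Slc15a3, Slc37a2, Slc40a1, Slc7a2 and the lysosomal nucleoside carrier Slc29a3), 5 fell in KO against ACT and rose in LAC against KO, and Slc40a1 did the opposite.

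Of 11 zinc importers of the Slc39 family, 7 rose and 3 fell in ACT against QS, which is 63.6% higher and 27.3% lower beside 38% and 35.5% of all genes. In KO against ACT 5 rose and 2 fell, so 63.6% were called, near the 62.4% of all genes. In LAC against KO none rose and 2 fell, which is 18.2% lower. Of all genes, 20% rose and 21% fell there. Slc39a6 had 274, 256 and 277 CPM in LAC, 259, 281 and 285 in KO, 149, 150.4 and 152 in ACT and 49.2, 50.9 and 47.8 in QS. It rose in ACT against QS (1.59 ± 0.047) and again in KO against ACT (0.86 ± 0.047), and LAC and KO libraries overlapped. Slc39a14, which brings zinc and iron into cells, averaged 41.5 CPM in LAC, 41.2 in KO, 53.4 in ACT and 23.8 in QS. The log2 fold change was 1.14 ± 0.10 in ACT against QS and -0.37 ± 0.10 in KO against ACT. Slc39a8, a relative that also carries manganese, ran the other way, at 25.8 CPM in LAC, 31.6 in KO, 16.3 in ACT and 121 in QS. The log2 fold change was -2.83 ± 0.094 in ACT against QS. Slc41a2, a magnesium carrier, showed the largest rise of any carrier gene in ACT against QS on the log2(CPM + 1) scale. It had 38.5, 36.4 and 37.2 CPM in LAC, 16.6, 17.2 and 20.4 in KO, 76.0, 74.1 and 72.6 in ACT and 4.77, 4.23 and 4.54 in QS, with no overlap between groups. The log2 fold change was 3.77 ± 0.089 in ACT against QS, -1.99 ± 0.089 in KO against ACT and 1.01 ± 0.089 in LAC against KO. Slc48a1, which moves haem out of lysosomes, was lowest in LAC, averaging 166 CPM there, 189.9 in KO, 224 in ACT and 237 in QS.

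The 27 carriers of inorganic ions, pH and phosphate also moved both ways, with 9 higher and 9 lower in ACT against QS and 7 and 11 in KO against ACT. LAC against KO gave 5 rises and 6 falls, and in LAC against ACT 8 rose and 9 fell. The shares called in that order were 66.7%, 66.7%, 40.7% and 63%, beside 73.5%, 62.4%, 41% and 49.5% of all genes. Slc8a1, the sodium-calcium exchanger NCX1, had 20.2, 26.5 and 26.5 CPM in LAC, 3.77, 5.63 and 3.08 in KO, 86.8, 84.7 and 92.3 in ACT and 25.6, 32.6 and 29.9 in QS. It fell in KO against ACT (-4.14 ± 0.16) and rose in LAC against KO (2.32 ± 0.16), with r = 0.880 against the macrophage list. Slc24a5, a potassium-dependent sodium-calcium exchanger known from pigment cells, had 16.3, 16.9 and 16.8 CPM in LAC, 23.5, 24.1 and 22.9 in KO, 2.90, 2.34 and 2.25 in ACT and 42.4, 39.5 and 41.0 in QS. The potassium-chloride carrier Slc12a5 averaged 8.28 CPM in LAC, 14.4 in KO, 2.15 in ACT and 37.9 in QS. Both were lowest in ACT without overlap and ran with the endothelial list at r above 0.9. The sums of the mitochondrially encoded genes and of 11 stellate markers were lowest in ACT too. Slc26a7, an anion exchanger, was 1 of the 7 genes highest in LAC. It was listed at 11.2, 10.7 and 12.4 CPM in LAC, 4.70, 4.20 and 6.84 in KO, 5.52, 4.85 and 5.81 in ACT and 0 in every QS library. Slc26a7 rose in LAC against KO (1.02 ± 0.18, adjusted p = 0.000449) and in LAC against ACT (0.96 ± 0.18). Slc4a11 was highest in KO, averaging 7.57 CPM in LAC, 9.84 in KO and 0.88 in ACT, and 1.05, 1.15 and 0 in the QS libraries. The phosphate carrier Slc20a1 rose in KO against ACT (0.44 ± 0.079). For the sodium-potassium-chloride carrier Slc12a2 only LAC against ACT was called (0.28 ± 0.11, adjusted p = 0.047). That call was lost without ACT replicate 2 or 3 and without LAC replicate 2 or 3, with adjusted p between 0.0538 and 0.199. LAC against KO was called for Slc12a2 without KO replicate 3 (0.34, adjusted p = 0.0209).

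Carriers of carboxylates, bile acids and organic ions (16 genes) were the class with the lowest median in ACT against QS, with 6 higher and 7 lower. In KO against ACT 5 rose and 5 fell, with 3 and 3 in LAC against KO, and 3 and 6 in LAC against ACT. The shares called in that order were 81.2%, 62.5%, 37.5% and 56.2%, beside 73.5%, 62.4%, 41% and 49.5% of all genes. Slc16a7, the monocarboxylate carrier MCT2, had 5.10, 5.74 and 5.47 CPM in LAC, 1.01, 0.494 and 0.997 in KO, 19.7, 21.1 and 18.0 in ACT and 8.58, 9.54 and 10.1 in QS. The gene showed a fall in KO against ACT of 3.50 and a rise in LAC against KO of 1.82 on the log2 scale. Slc16a10, which carries aromatic amino acids, did likewise, averaging 24.1 CPM in LAC, 5.23 in KO, 91.8 in ACT and 60.7 in QS. Slc16a9 and Slc16a12, known in humans as carriers of carnitine and creatine, and Slc22a23 were highest in QS. Slc16a9 averaged 3.77 CPM in LAC, 5.05 in KO, 5.83 in ACT and 43.5 in QS.

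The Slc35 family, which brings nucleotide sugars into the Golgi and endoplasmic reticulum for glycosylation, had 22 genes. In ACT against QS 14 rose and 3 fell, which is 63.6% higher and 13.6% lower beside 38% and 35.5% of all genes. In KO against ACT 9 rose and 4 fell, and 40.9% and 18.2% lie near the 36% and 26.3% of all genes. LAC against KO gave 2 rises and 5 falls, and 7 rose and 3 fell in LAC against ACT. The shares called there were 31.8% and 45.5%, beside 41% and 49.5% of all genes. The family summed to 731 to 747 CPM in LAC, 751 to 780.4 in KO, 733 to 746 in ACT and 599 to 618 in QS. The QS libraries lay below all others. Slc35e4 averaged 28.7 CPM in LAC, 32.1 in KO, 24.0 in ACT and 6.16 in QS. The log2 fold change was 1.82 ± 0.14 in ACT against QS. Slc35g2 was lowest in ACT (1.99 ± 0.13 in KO against ACT), and Slc35a5 was lowest in KO (0.59 ± 0.10 in LAC against KO, -1.16 ± 0.10 in KO against ACT).

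Of the 9 carriers of nucleosides and vitamins, 2 rose and 3 fell in ACT against QS, 3 rose and 4 fell in KO against ACT, and 3 rose and 1 fell in LAC against KO. The shares called in that order were 55.6%, 77.8% and 44.4%, beside 73.5%, 62.4% and 41% of all genes. Slc29a1, the equilibrative nucleoside carrier ENT1, had 44.5, 41.1 and 44.6 CPM in LAC, 69.4, 74.3 and 72.0 in KO, 31.6, 31.9 and 33.0 in ACT and 200.4, 186 and 179 in QS, all groups apart. The sodium-driven purine nucleoside carrier Slc28a2 had 5.22, 4.85 and 5.72 CPM in LAC, 0.444, 0.33 and 0.427 in KO, 20.1, 18.3 and 17.4 in ACT and 50.8, 58.0 and 65.0 in QS, again with no overlap. It fell in KO against ACT by 3.80 on the log2 scale. The thiamine carrier Slc19a2 rose in ACT against QS (0.74 ± 0.082) and in KO against ACT (0.62 ± 0.082).

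Of the 6 carriers of fatty acids, acetyl-CoA and choline, 5 rose and none fell in ACT against QS, and 1 rose and 3 fell in KO against ACT. The shares called were 83.3% and 66.7%, beside 73.5% and 62.4% of all genes. Slc33a1, which moves acetyl-CoA into the endoplasmic reticulum, was highest in LAC, with 62.3, 64.2 and 68.1 CPM in LAC, 51.9, 55.7 and 60.5 in KO, 47.3, 46.6 and 49.2 in ACT and 26.4, 27.8 and 23.4 in QS. The choline carrier Slc44a2 averaged 129 CPM in LAC, 109.6 in KO, 168 in ACT and 124 in QS and fell in KO against ACT (-0.61 ± 0.049). The fatty acid carrier Slc27a1 was listed at 4.24, 0 and 0.000656 CPM in LAC, 0, 0 and 3.22 in KO, 12.6, 8.42 and 7.48 in ACT and 0, 5.85 and 3.3e-09 in QS. Its ACT libraries lay above all others. Its rise in ACT against QS was no longer called without QS replicate 1 or QS replicate 3, nor its fall in LAC against ACT without ACT replicate 1, LAC replicate 2 or LAC replicate 3. Among 7 vesicular, lysosomal and other carriers 2 rose and 2 fell in ACT against QS, and none was called in LAC against KO or LAC against ACT. Of all genes, 73.5%, 41% and 49.5% were called in these comparisons. Of the 4 genes that encode no carrier, Slc9a3r1 averaged 42.3 CPM in LAC, 41.3 in KO, 133 in ACT and 71.1 in QS. Slc9a3r2 averaged 55.5 CPM in LAC, 84.2 in KO, 28.3 in ACT and 158 in QS.

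The course of each gene over the 12 libraries was set beside the mean of the macrophage and endothelial marker lists as a description. The libraries of a group are shared by every gene and marker. The share of all genes with an r above 0.9 was not counted. Whether carriers reach that value more often than other genes was not tested. A Pearson r above 0.9 with the macrophage list was reached by 11 genes, among them Slc2a6, Slc7a8, Slc11a1, Slc15a3, Slc16a6, Slc16a7, Slc16a10, Slc28a2, Slc29a3 and Slc44a1. All 11 fell in KO against ACT, with log2 fold changes of -4.97 to -0.51, and 9 rose in LAC against KO. An r above 0.9 with the endothelial list was reached by 12, among them Slc4a8, Slc9a3r2, Slc12a5, Slc15a2, Slc24a5, Slc30a4, Slc35b3, Slc38a2, Slc38a6, Slc43a3 and Slc45a3. All 12 fell in ACT against QS and rose in KO against ACT, and 8 fell in LAC against KO. The order of the endothelial sums, QS, KO, LAC and ACT from highest to lowest, was not particular to that list. The mitochondrially encoded genes and the stellate markers other than Acta2, Col1a1, Col1a2 and Col3a1 summed in the same order. The sets of 11 and 12 carrier genes were picked by their r over these same libraries. Their directions therefore largely follow from the choice and are no separate result. With these 23 genes left out, the other 141 gave 24 rises and 22 falls in LAC against KO, with 10 rises and 1 fall of at least 2-fold. They gave 40 rises and 47 falls in KO against ACT, and 69 rises and 34 falls in ACT against QS. Of all genes, 20% rose and 21% fell in LAC against KO, with 5.12% and 2.19% at least 2-fold. The shares were 36% and 26.3% in KO against ACT, and 38% and 35.5% in ACT against QS. No genes were left out of these shares by r, so they are not like the counts of the 141. Those counts also follow in part from the choice by r. Slc7a11, Slc7a5 and Slc3a2 were among the 141. Slc7a2, Slc8a1, Slc37a2, Slc45a4 and Slc38a1 were as well, though the first 4 lay at r of 0.865 to 0.880 with the macrophage list and Slc38a1 at 0.538.

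**Figure D5:**
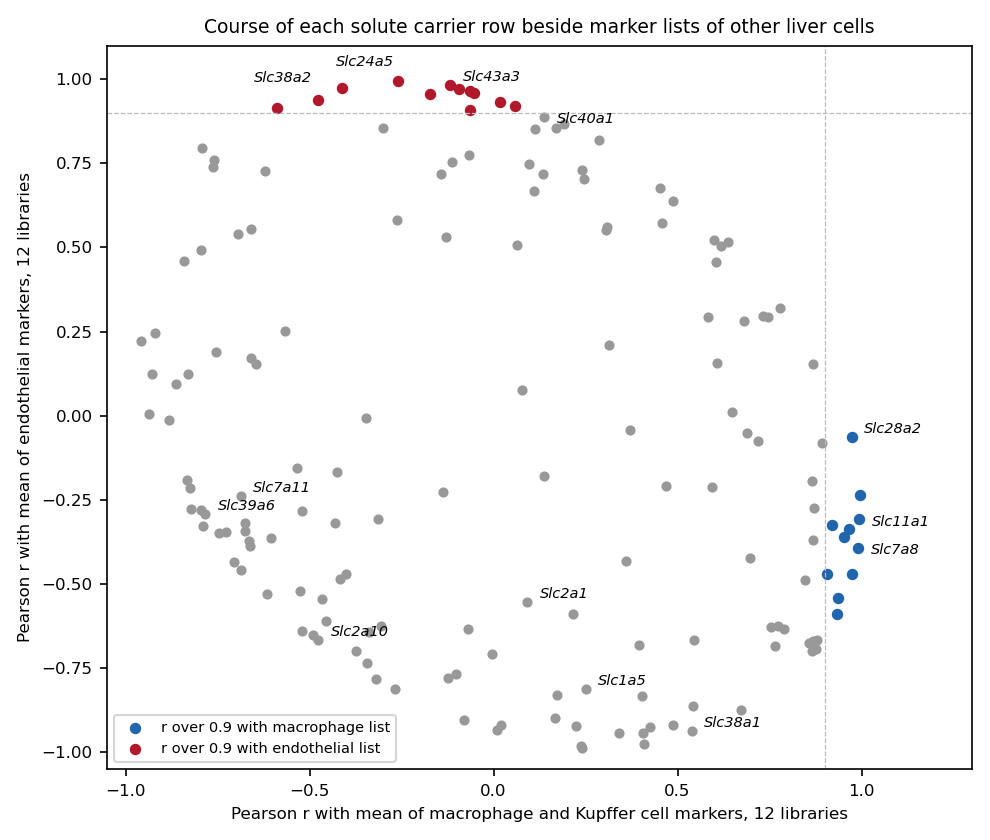
Each point is 1 of the 164 genes, placed by its Pearson r over the 12 libraries with the mean of the macrophage and Kupffer cell markers (horizontal) and of the endothelial markers (vertical). The 11 genes above 0.9 on the horizontal axis are blue and the 12 above 0.9 on the vertical axis are red; Slc7a11 and Slc2a1 lie outside both sets.

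Of the 13 carriers known from hepatocytes, 2 had a row. Slc38a4, an importer of neutral amino acids, stood at 4.35, 5.91 and 4.39 CPM in LAC, 3.25, 6.43 and 5.13 in KO, 29.0, 27.3 and 26.1 in ACT and 17.5, 14.9 and 18.5 in QS. Its ACT libraries lay above all others. Slc37a4, which moves glucose-6-phosphate into the endoplasmic reticulum, was listed at 0, 4.92 and 4.97 CPM in LAC, 3.16, 3.68 and 7.12 in KO, 3.01, 1.12 and 3.08 in ACT and 6.40, 7.48 and 7.93 in QS. It fell in ACT against QS (-1.34 ± 0.55, adjusted p = 0.0409). The call was lost without any 1 of the QS libraries and without ACT replicate 1 or 2, with adjusted p between 0.052 and 0.149.

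Genes that work with carriers were counted as well. Of 20 partners and regulators 18 had a row, and 7 rose and 3 fell in LAC against KO, 9 rose and 8 fell in KO against ACT and 9 rose and 9 fell in ACT against QS. Of all genes, 41%, 62.4% and 73.5% were called in these comparisons. Atp1b3, a subunit of the sodium pump that drives sodium-coupled carriers, averaged 674 CPM in LAC, 324 in KO, 721 in ACT and 334 in QS, with a log2 fold change of 1.05 in LAC against KO (adjusted p = 2.68e-10). Txnip, which restrains glucose uptake and is induced by glucose, averaged 148 CPM in LAC, 154 in KO, 210.3 in ACT and 1077 in QS. Txnip fell in ACT against QS by 2.35 on the log2 scale. Heph, the ferroxidase that serves ferroportin, was lowest in ACT like Slc40a1, at 43.1 CPM in LAC, 57.1 in KO, 20.5 in ACT and 65.4 in QS.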

How the data were processed

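Poly(A) RNA was sequenced with a stranded kit, per the labels' protocols, in 12 libraries of 4 groups, each with 3 replicates numbered in the titles. The deposited values are the authors' normalized signal, CPM with a further scaling factor per library (column totals 959233 to 1047042). The submitters' processing notes name edgeR 3.8, kallisto 0.44.0, cutadapt 1.18, FastQC 0.11.8 and the build mm10, with no role or order given. Between 19.7% and 25.7% of positive values were whole reads within 0.01, so no count test was run. Depth was estimated from low values that recur in several genes.

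On the log2(CPM + 1) scale, limma 3.58.1 (R 4.3.3) fitted a mean for each of the 4 groups over all 12 libraries, with moderation along the intensity trend, two-sided tests and Benjamini-Hochberg adjustment over 12081 genes in each comparison. The pseudocount of 1 understates changes of low genes, and scaling to the bulk of genes cannot show total RNA per cell. The low-value filter, 1 CPM in 3 libraries, removed no gene. Within every group the spread between libraries exceeded sampling noise (chi-square per gene 2.27 to 4.86), so none was treated as a repeat deposit of another. This does not show that they came from separate cultures.

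Classes of substrate followed the family number. Named genes were called, at 5 CPM or more in the higher group and without overlap: the 8 largest rises and falls of each comparison, then up to 3 called genes per class, the 10 with the highest mean and 15 chosen by name; others are marked or stand in a count, and some named by the rule are not reported here. Members and lists were chosen with earlier results of these data known. Coordinates came from GENCODE M21 (161 genes matched) and promoters from RefSeq GRCm38.p6. The alternatives were other pseudocounts, filters, scalings, thresholds and moderation, fewer groups in the fit, a replicate block and leaving out each library. The code was tested on simulated data.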

Additional observations from a re-analysis of the deposited data

How the results depend on the processing

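Of the 8 counts of solute carriers called higher or lower, 7 stayed within 1.5 times their value under every alternative. The exception was the 30 falls in LAC against KO, which became 19 at an adjusted p threshold of 0.01, a stricter limit by construction. Leaving out 1 library at a time gave 28 to 37 rises and 26 to 29 falls in LAC against KO, 45 to 52 rises and 53 to 59 falls in KO against ACT, 67 to 73 rises and 45 to 49 falls in ACT against QS, and 35 to 42 rises and 49 to 52 falls in LAC against ACT. Of 187 values for single genes, 157 kept their direction and call under every alternative, and none reversed. Replicate numbers did not pair the libraries: same-numbered libraries deviated together with correlations of -0.0548 to 0.0786. With the replicate number as a block, 33 carriers rose and 30 fell in LAC against KO, as without it. The block ended the calls of Slc17a9 in ACT against QS (adjusted p = 0.0552), Slc33a1 in LAC against KO (0.0522) and Slc12a2 in LAC against ACT (0.0634), and added that of Slc11a1 in ACT against QS (0.0433). Scaling each library to an equal total moved the median of all genes to 0.11 in ACT against QS and 0.10 in KO against ACT, and gave 80 rises and 45 falls of carriers in ACT against QS. Depth limits the genes under 1 CPM, where 3 reads amount to up to 0.72 CPM.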

Other observations

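Carriers that belong to the solute carrier nomenclature under other symbols were outside the symbol rule, and 9 of 14 such genes had a row. In LAC against KO 2 of the 9 rose and 3 fell, in KO against ACT 5 rose and 2 fell, and in ACT against QS 4 rose and 4 fell. Of all genes, 41%, 62.4% and 73.5% were called in these comparisons. Slco4a1, an organic anion carrier that takes up thyroid hormones, averaged 44.3 CPM in LAC, 38.1 in KO, 11.0 in ACT and 0.482 in QS, and rose in KO against ACT (log2 fold change 1.71, adjusted p = 2.35e-05) and in ACT against QS (3.10, adjusted p = 2.75e-08). Slco2a1, the prostaglandin carrier, was lowest in ACT, with 219, 225 and 211 CPM in LAC, 243, 225 and 230.2 in KO, 109.6, 119 and 113 in ACT and 256, 246 and 247 in QS. Xpr1, the exporter of phosphate, averaged 107 CPM in LAC, 72.8 in KO, 139.9 in ACT and 72.6 in QS and changed in each comparison (0.56 in LAC against KO, -0.94 in KO against ACT, 0.94 in ACT against QS). The haem exporter gene Flvcr1 was lowest in KO by its mean, at 28.9 CPM in LAC, 17.6 in KO, 32.2 in ACT and 23.9 in QS. Mpc1, a subunit of the mitochondrial pyruvate carrier, averaged 28.2 CPM in LAC, 33.7 in KO, 38.7 in ACT and 30.6 in QS, and was not called in LAC against KO (-0.24, adjusted p = 0.0541) or KO against ACT (-0.20, adjusted p = 0.0878). These genes were chosen after their values were seen.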
